A study of Mus musculus with 6 samples.

Results

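Membrane carriers that move bicarbonate, protons, chloride, phosphate, calcium, zinc and manganese were examined in RNA sequencing of biliary epithelial cells of mouse liver, which line its bile ducts. The cells are intrahepatic by the title of the series. The members were chosen by gene symbol alone, as all rows of the carrier families Slc4, Slc8, Slc9, Slc12, Slc20, Slc24, Slc26, Slc30, Slc34 and Slc39. The rule found 78 of the 25302 rows of the table. Of these, 74 are carriers, and the other 4 share the name only: the scaffold proteins Slc9a3r1 and Slc9a3r2, the adaptor protein Slc4a1ap and the pseudogene Slc39a1-ps. Both groups carried floxed alleles of Sox9, a transcription factor gene of the bile duct. The 3 Control samples had the genotype Sox9fl/fl, with no Cre. The 3 Sox9cKO samples had the genotype Sox9fl/fl:AlbCre+/-, in which the albumin promoter drives Cre recombinase, so that Cre is not limited to biliary cells. Age and sex were not given in the sources used here, nor whether each sample came from its own animal, so p-values measure the spread between these samples only.

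Bile duct cells add water and bicarbonate to bile. Bicarbonate enters the cell from the blood side with sodium, through Slc4 cotransporters, or is made inside by carbonic anhydrases. It leaves into the duct in exchange for chloride that channels such as Cftr have let out. Sodium/proton exchangers of the Slc9 family and cation-chloride cotransporters of the Slc12 family set cell pH, volume and chloride. Slc20 and Slc34 carriers take up phosphate with sodium, Slc8 and Slc24 carriers remove calcium in exchange for sodium, Slc39 carriers bring zinc or manganese into the cytosol, and Slc30 carriers take zinc or manganese out of it.

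Values are given as normalized reads, each library's reads having been scaled by its own size factor. Libraries held between 11883496 and 16191990 reads on genes. Sox9 lay between 6043 and 6293 in Control and between 3165 and 3363 in Sox9cKO, so that each library followed its label. The 10 biliary marker genes, among them Krt8, Krt18, Krt19 and Epcam, summed to between 173822 and 221511 in Control and between 160591 and 226866 in Sox9cKO, and none was at 0. Of these, 8 had a lower mean log2 level in Sox9cKO. Krt7 rose, and with the replicate block described below 1 was called higher (Krt7) and 2 lower, among them Spp1. The 10 hepatocyte markers summed to between 21282 and 33653 in Control and between 42524 and 71917 in Sox9cKO, and 4 of them rose (Apob, Fgb, Serpina1c and Tat) while Cyp2e1 and Cyp3a11 stayed at or below 128 in every library. The 8 endothelial markers summed to 9514, 30554 and 1368 in Control replicates 1, 2 and 3 and to 23516, 31188 and 5094 in the same-numbered Sox9cKO libraries. Their sum thus differed widely within groups and was higher in Sox9cKO in each pair. All 8 had a positive log2 fold change (median 1.07), none was called without the block, and Vwf was called higher with it. The 7 leukocyte markers in the table summed to between 1058 and 1136 in Control and between 1512 and 1831 in Sox9cKO, but most of the markers went the other way. Of the 6 tested, 5 were lower in Sox9cKO (median log2 fold change of the 6, -0.57), Csf1r was called higher, and Lyz2 was called lower with the block only. The part of these other cells in the results below was not tested, and in such bulk samples fewer cells of a type and less RNA per cell cannot be told apart.

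A gene was tested where its mean over the 6 libraries was at least 10 normalized reads, and was called where its adjusted p was under 0.05 in limma's moderated test over all tested genes. Of the 78 members, 64 were tested and 4 were called. Slc4a4, Slc34a2 and Slc39a4 rose in Sox9cKO and Slc26a7 fell. That is 6.25% of the tested members, beside 2.97% of all 17153 tested genes, and rests on 4 genes. By direction, 3 members were called higher and 1 lower, beside 2.03% and 0.939% of all tested genes. Same-numbered libraries of the 2 groups deviated together. When the fit took the replicate number as a block, 9 members were called (14.1%; 6 higher and 3 lower), beside 8.05% of all tested genes (5.06% higher and 2.99% lower). The 5 added were Slc4a7, Slc4a9 and Slc20a1, which were higher in Sox9cKO, and Slc4a5 and Slc8a2, which were lower. The 3 Sox9cKO libraries lay wholly above or wholly below the 3 Control libraries for 16 tested members (25%), which is close to the 24.2% of all tested genes. Of these, 9 were higher and 7 lower, beside 13.4% and 10.8% of all tested genes. On whole reads, edgeR called the same 4 members as limma (3 higher and 1 lower), beside 2.86% of all tested genes (1.82% higher and 1.04% lower). With the block, edgeR called the same 9 as limma with the block, beside 6.76% (3.87% higher and 2.89% lower). DESeq2 called these 9 and Slc12a8, 6 higher and 4 lower, beside 7.08% (4.2% higher and 2.87% lower). The median log2 fold change was 0.18 over tested members and 0.036 over all tested genes. Of the 64 tested members, 35 had a log2 fold change of less than 0.5 in size, beside 12410 of all 17153 tested genes. In limma, 15 members had an unadjusted p under 0.05, beside 3047 of all tested genes, a share against which such counts below are to be read. An adjusted p above 0.2 was found for 54 members, beside 15076 of all tested genes. Small changes thus made up a lower share of the members than of all tested genes.

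**Figure D1:**
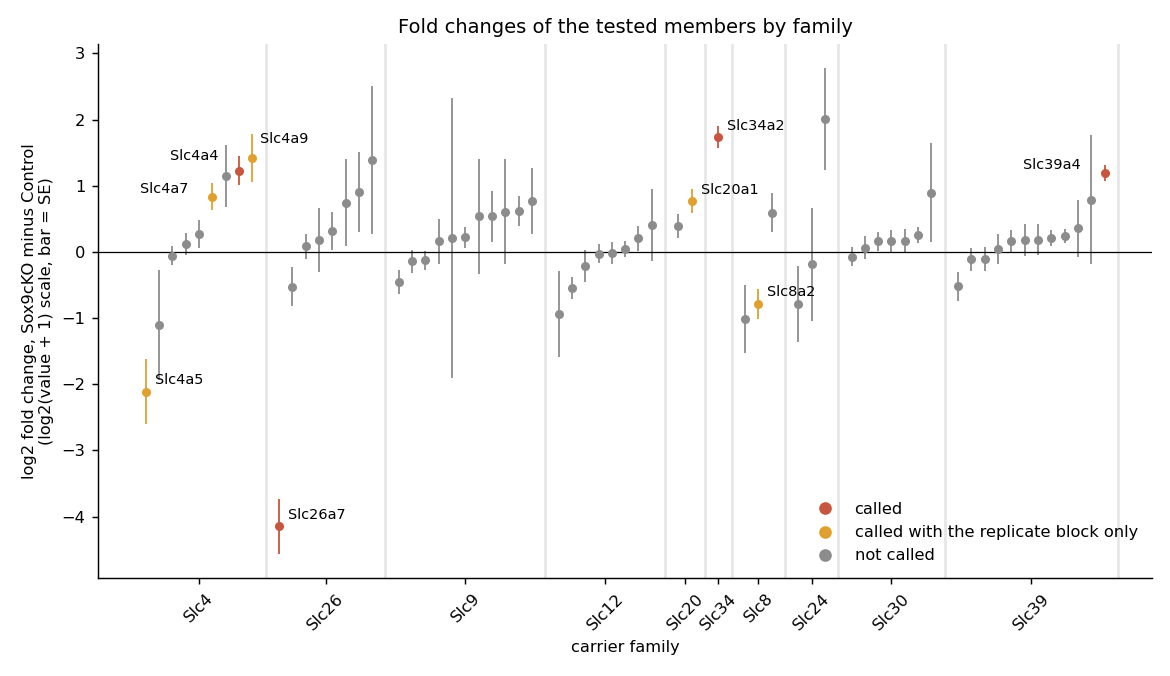
Log2 fold change (Sox9cKO minus Control, log2(value + 1) scale) with its standard error for the 64 tested members, ordered by size within each carrier family. Red points are the 4 called members, orange points the 5 called with the replicate block only, and grey points the rest. Slc26a7 at -4.15 is the largest change of all. The Slc4 family, with 9 tested rows, holds 4 of the 9 coloured points. With the block, 8.05% of all tested genes were called.

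RefSeq start sites of build GRCm38.p6 were matched by symbol for 61 of the 78 members. Start regions are shown for 3 genes with higher levels in Sox9cKO, of which 2 were called higher without the block and Slc20a1 with it. Each line gives the 250 bases before the annotated start, 5′ to 3′, on the plus strand. The windows are chr5:53049103-53049352 for Slc34a2, chr5:88887010-88887259 and chr5:89027716-89027965 for the upstream and the internal start of Slc4a4, and chr2:129198523-129198772 for the upstream start of Slc20a1. Capitals mark matches to any of the 6 motifs searched on both strands.
Slc34a2: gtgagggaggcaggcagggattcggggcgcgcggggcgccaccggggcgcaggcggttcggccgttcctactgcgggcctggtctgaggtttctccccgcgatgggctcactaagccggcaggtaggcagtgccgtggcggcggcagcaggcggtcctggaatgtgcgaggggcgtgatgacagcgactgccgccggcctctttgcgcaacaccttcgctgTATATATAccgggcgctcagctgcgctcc
Slc4a4 upstream: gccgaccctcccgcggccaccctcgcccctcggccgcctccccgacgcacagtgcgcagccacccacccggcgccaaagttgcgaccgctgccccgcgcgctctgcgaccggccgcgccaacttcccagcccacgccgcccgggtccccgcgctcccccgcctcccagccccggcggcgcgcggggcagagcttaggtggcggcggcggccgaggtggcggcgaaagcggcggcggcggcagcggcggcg
Slc4a4 internal: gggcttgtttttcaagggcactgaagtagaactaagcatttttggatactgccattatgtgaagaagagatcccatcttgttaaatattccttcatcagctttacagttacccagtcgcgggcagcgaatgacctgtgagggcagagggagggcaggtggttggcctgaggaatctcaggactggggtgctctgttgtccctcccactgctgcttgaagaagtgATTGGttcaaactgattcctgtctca
Slc20a1 upstream: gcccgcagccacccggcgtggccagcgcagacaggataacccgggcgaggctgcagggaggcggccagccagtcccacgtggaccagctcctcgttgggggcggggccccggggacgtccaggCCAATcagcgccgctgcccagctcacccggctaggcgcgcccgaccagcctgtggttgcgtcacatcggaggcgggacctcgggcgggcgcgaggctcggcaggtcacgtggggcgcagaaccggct
The motifs were the SOX cores ACAATG and ACAAAG, the HNF1 core GTTAAT, the SMAD palindrome GTCTAGAC, TATATA and CCAAT. Over all 32851 windows of this length in the table, the shares with a match were 10.7%, 16.5%, 6.43%, 0.167%, 5.25% and 33.8% in that order. Of the 78 windows of members, 5, 7, 5, 0, 2 and 31 had a match. The Slc34a2 window held TATATA (2 overlapping matches, in the run of capitals near its end), and the Slc4a4 internal and Slc20a1 windows held CCAAT, on the minus and the plus strand respectively. The Slc4a4 upstream window held none of the motifs, and 82% of its bases were G or C, against 48.8% at the internal start. The values below are for whole genes, so that the starts of Slc4a4 cannot be told apart in them; the internal start is known as that of the kidney variant.

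Among the bicarbonate carriers, Slc4a4 (ENSMUSG00000060961) encodes the electrogenic sodium/bicarbonate cotransporter NBCe1, which brings bicarbonate into secreting cells. It had 2159, 3284 and 2964 normalized reads in the Control libraries, in the order of their replicate numbers, and 8419, 5488 and 5822 in the Sox9cKO libraries. Every Sox9cKO library was above every Control library, and Sox9cKO replicate 1 was the highest. The mean rose from 2802 ± 580 to 6576 ± 1604 (SD, n = 3), a log2 fold change of 1.23 ± 0.22 (SE; limma, adjusted p 0.0319). With each library left out in turn the log2 fold change stayed between 1.03 and 1.35, but the call was kept only without Control replicate 2 (adjusted p 0.0392). It was lost without Control replicate 1 (0.115) or 3 (0.0964), without Sox9cKO replicate 1 (0.0652), 2 (0.0540) or 3 (0.0758), and in limma without the intensity trend (0.0752).

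Slc4a7 (ENSMUSG00000021733), the electroneutral sodium/bicarbonate cotransporter NBCn1, had 1061, 1129 and 1514 normalized reads in Control and 1701, 2285 and 2662 in Sox9cKO. In both groups replicate 3 was the highest and replicate 1 the lowest, and the groups did not overlap. Its log2 fold change was 0.84 ± 0.21 (SE), and limma's adjusted p was 0.0890 without the block and 0.00730 with it. The differences within same-numbered pairs were 0.68, 1.02 and 0.81 on the log2(value + 1) scale. Their shared direction follows from the lack of overlap. Among all tested genes, 48.5% had the same sign in the 3 pairs.

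Slc4a9 (ENSMUSG00000024485), known as the anion exchanger AE4, had 270, 381 and 407 normalized reads in Control and 804, 609 and 1665 in Sox9cKO. All 3 Sox9cKO libraries were above the Control libraries, with replicate 3 at more than the level of the other 2 together. The log2 fold change was 1.43 ± 0.36 (SE), with a limma adjusted p of 0.0987, or 0.0194 with the block.

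Slc4a5 (ENSMUSG00000068323), the electrogenic cotransporter NBCe2, was called lower in Sox9cKO with the block. It had 18.5, 24.1 and 24.2 normalized reads in Control and 1.99, 4.73 and 7.92 in Sox9cKO, with no overlap. The summed reads were 69 and 14, so that Control was 4.63 times Sox9cKO, with an exact binomial 95% interval of 2.58 to 8.91 that covers counting error only. Limma's adjusted p was 0.0757 without the block and 0.0333 with it, at a log2 fold change of -2.11 ± 0.49 (SE). Per length of exon, Slc4a5 was at 2.34 normalized reads per kb over all libraries, against 434 for Slc4a4, so that Slc4a5 was a minor transcript of the family. In all, 3 of the 9 tested Slc4 rows had a negative log2 fold change, among them Slc4a8, named after its values were seen (-1.10, not called).

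**Figure D2:**
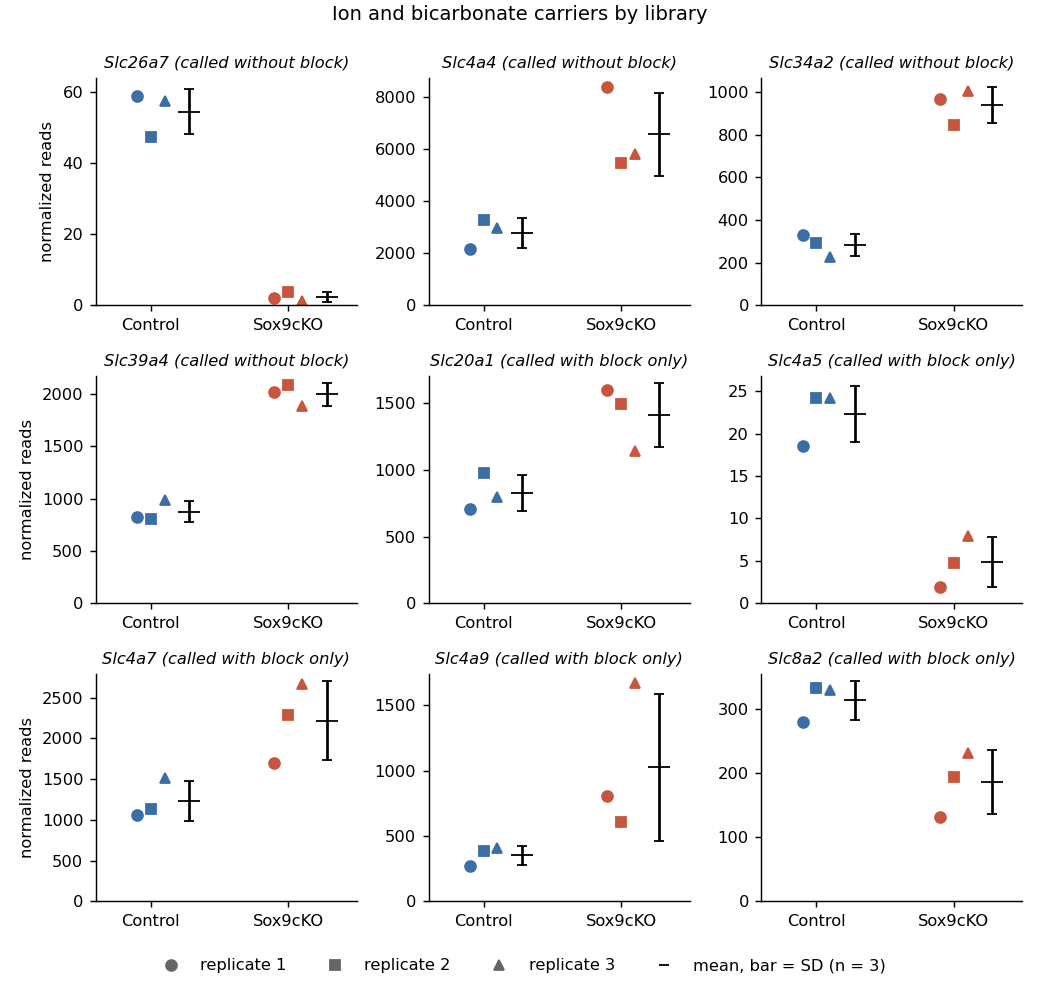
Normalized reads of the 9 members called with or without the replicate block, by group. Marker shapes give the replicate number, and the bar beside each group is its mean with the SD (n = 3). In all 9 panels the Control and Sox9cKO points do not overlap, and on each panel's own axis the gap is widest for Slc26a7 and Slc34a2. The panels were chosen by calls on these same values, so the lack of overlap is no separate support. The groups do not overlap for 24.2% of all tested genes.

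The chloride/bicarbonate exchangers AE2 and AE3 were not called without or with the block. Slc4a2 (ENSMUSG00000028962), or AE2, is the exchanger that is known for putting bicarbonate into bile. It had 1098, 886 and 923 normalized reads in Control and 1272, 1011 and 897 in Sox9cKO, and the groups overlapped. The log2 fold change was 0.12 with a 95% interval of -0.26 to 0.50 (limma, adjusted p 0.758), an interval that leaves out a change as large as that measured for Slc4a4. Of its exon bases, 13.7% overlap exons of Fastk on the opposite strand, and the strand setting of the counting is not given in the sources used here. Slc4a3, the related exchanger AE3, had 730 ± 199 in Control and 863 ± 99.9 in Sox9cKO, with a log2 fold change of 0.27 (95% interval -0.23 to 0.77). Slc4a1, the exchanger of red blood cells, was below the level for testing, at 8.06 to 18.6 normalized reads in Control and 0.995 to 3.78 in Sox9cKO. Its summed reads were 43 and 8, with no overlap of the groups. The 7 erythroid markers in the table summed to between 55.3 and 104 in Control and between 54.3 and 111 in Sox9cKO. Slc4a11, chosen after its values were seen, had 84.1, 89.1 and 139 in Control and 108, 394 and 272 in Sox9cKO, a difference that was not called (limma, adjusted p 0.255, or 0.0788 with the block). Of the 9 tested Slc4 rows, which include the adaptor Slc4a1ap, 1 was called without the block and 4 with it. That is 11.1% and 44.4%, beside 2.97% and 8.05% of all tested genes, and rests on few genes.

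Slc26 carriers exchange anions such as chloride, bicarbonate, sulfate and iodide. Slc26a7 (ENSMUSG00000040569), a chloride/bicarbonate exchanger and chloride carrier known from stomach, kidney and thyroid, showed the largest change of all tested members. It had 58.8, 47.3 and 57.6 normalized reads in Control and 1.99, 3.78 and 1.13 in Sox9cKO. The transcript was thus nearly lost in all 3 Sox9cKO libraries. The summed reads were 171 in Control and 7 in Sox9cKO, a ratio of 23.0 (exact binomial 95% interval 10.9 to 58.0, counting error only). It fell with a log2 fold change of -4.15 ± 0.41 (SE; limma, adjusted p 0.00453). It kept its call in all 17 alternatives in which it was tested (adjusted p up to 0.0334, log2 fold change from -4.66 to -3.04).

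Slc26a6 (ENSMUSG00000023259), an exchanger of epithelia that face bicarbonate-rich fluid, had 46.2, 54.8 and 32.3 normalized reads in Control and 26.9, 35.0 and 28.3 in Sox9cKO. The groups overlapped, and the log2 fold change of -0.53 was not called (95% interval -1.21 to 0.16; limma, adjusted p 0.407). Slc26a2, a sulfate carrier that had the highest read level of the family, was at 782 ± 134 in Control and 1014 ± 363 in Sox9cKO and was not called either (limma, adjusted p 0.633). Of the 11 Slc26 rows, 8 were tested, and only Slc26a7 was called, both without and with the block.

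Slc9 carriers exchange sodium for protons. Slc9a2, an exchanger of epithelia, had overlapping groups and a log2 fold change of 0.77 (95% interval -0.39 to 1.93) and was not called. Slc9a3r1, the scaffold NHERF1 that holds carriers at the apical membrane, was the highest member per length of exon, at 897 normalized reads per kb over all libraries. Its log2 fold change was -0.14 (95% interval -0.55 to 0.27). None of the 11 tested rows of the family was called by limma without or with the block, by edgeR or by DESeq2. In limma, 2 rows had an unadjusted p under 0.05, beside 3047 of all 17153 tested genes. Among the 2 was Slc9a7, an exchanger of the Golgi network that was named after its values were seen (log2 fold change 0.62).

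Slc9a3 (ENSMUSG00000036123), the apical exchanger NHE3 of gut, kidney and gallbladder, was high in a single library. Its normalized reads were 5.04, 13.9 and 11.5 in Control and 535, 0 and 2.26 in Sox9cKO. The other 2 Sox9cKO libraries were thus below all Control libraries. The log2 fold change was 0.21 with a 95% interval of -4.75 to 5.17, and without Sox9cKO replicate 1 it was -2.53 (limma, adjusted p 0.974 and 0.201). In edgeR it was 4.08 and was not called either (adjusted p 0.346). DESeq2 gave it no adjusted p. Slc9a3 was 1 of only 3 rows in the table with over 200 normalized reads in this library and over 8 times the level of every other library, a rule set after the values were seen.

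Slc26a3, the chloride/bicarbonate exchanger of the colon, also stood out in Sox9cKO replicate 1, at 348 normalized reads, beside 13.2 and 45.3 in the other Sox9cKO libraries and 9.25, 30.6 and 38.0 in Control. The same library was the highest for Slc9a4 (208) and Slc26a9 (118), carriers known from the stomach that were named after their values were seen. A list of intestinal epithelial genes, chosen after the data were seen, had rows for 6 of its 9 genes and summed to 2722 in this library, beside 732 to 1579 in the other 5. The 3 tested genes of the list all had a positive log2 fold change between the groups (limma, median 0.796). None of them was called without or with the block. Cdx2, Sis and Aqp8, named after the values were seen, were too low to test, at 5.97 or below in every library. In Sox9cKO replicate 1 they were at 1.99, 0 and 5.97. Whether another epithelium was present in this library was not tested further.

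**Figure D3:**
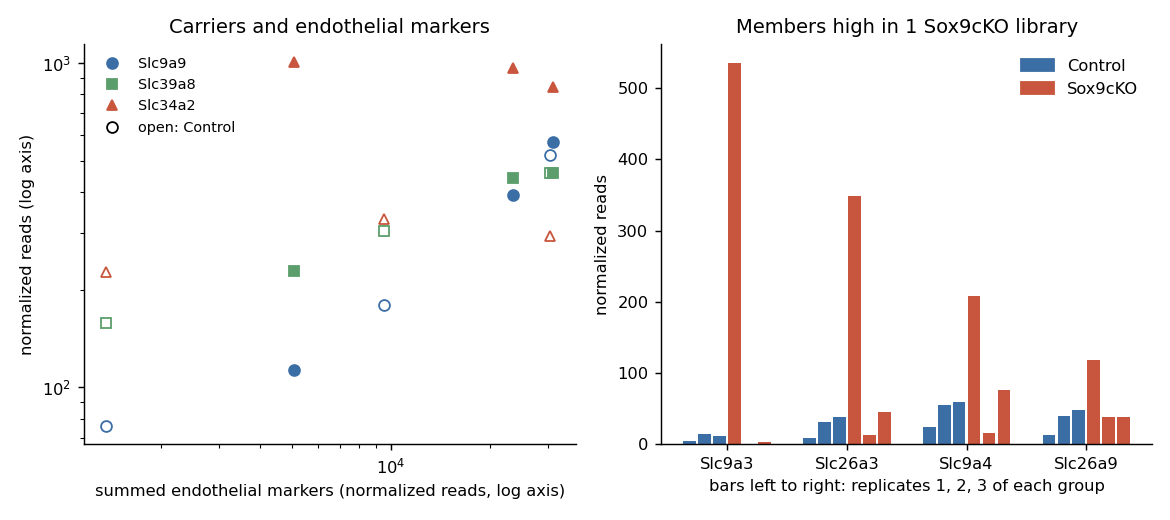
Left, normalized reads of Slc9a9, Slc39a8 and Slc34a2 against the summed endothelial markers of each library (log axes; open symbols are Control, filled symbols Sox9cKO). Slc9a9 and Slc39a8 are the 2 tested members whose 6 libraries stand in the order of the markers, so their climb with the markers is given by that choice. Slc34a2, a called member, separates by group. Right, normalized reads of 4 members in each library, where the first Sox9cKO bar is the highest in every set.

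Some members differed widely by replicate number, in the same order in both groups. Slc9a9, an exchanger of endosomes that was named after its values were seen, had 179, 520 and 76.0 normalized reads in Control and 392, 572 and 113 in Sox9cKO. In both groups replicate 2 was the highest and replicate 3 the lowest. The summed endothelial markers, given above, put the 6 libraries in the same order. Slc39a8, a carrier of zinc and manganese, also had this order, with 303, 457 and 158 in Control and 443, 457 and 228 in Sox9cKO. The full order was shared by 2 of the 64 tested members and by 1.06% of all tested genes. Within same-numbered pairs, Slc9a9 was higher in Sox9cKO by 1.13, 0.14 and 0.57 on the log2(value + 1) scale. Slc39a8 was higher by 0.54, 0.0024 and 0.52. Neither gene was called (limma, adjusted p 0.750 and 0.723, or 0.120 and 0.207 with the block).

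The Slc12 family moves chloride together with sodium or potassium. Slc12a2, the cotransporter NKCC1 that loads secreting cells with chloride, had the highest read level of the family, at 2344, 2486 and 3410 in Control and 2851, 1671 and 2671 in Sox9cKO. The groups overlapped, with a log2 fold change of -0.21 (95% interval -0.77 to 0.34). The potassium/chloride cotransporter Slc12a7, which lets chloride and potassium out, had a log2 fold change of 0.04 (95% interval -0.25 to 0.34). Of the 8 tested rows, limma called none without or with the block and edgeR none, 1 had an unadjusted p under 0.05, and DESeq2 called 1. That gene was Slc12a8, named after its values were seen, with 618 ± 120 in Control and 418 ± 21.2 in Sox9cKO (DESeq2, adjusted p 0.0377; limma 0.147).

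Of the sodium-coupled phosphate carriers, Slc34a2 rose, and Slc20a1 was called higher with the block. Slc34a2 (ENSMUSG00000029188), the sodium/phosphate cotransporter NaPi-IIb of lung, gut and other epithelia, had 330, 292 and 227 normalized reads in Control and 966, 844 and 1005 in Sox9cKO. The lowest Sox9cKO library was far above the highest Control library. It rose from 283 ± 51.9 to 938 ± 84.2 (SD, n = 3), a log2 fold change of 1.74 ± 0.17 (SE; limma, adjusted p 0.00412), and kept its call under all 18 alternatives (adjusted p up to 0.0235).

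Slc20a1 (ENSMUSG00000027397), the phosphate carrier PiT-1 found in most cells, had 704, 973 and 795 in Control and 1597, 1492 and 1137 in Sox9cKO. The groups did not overlap, and its log2 fold change was 0.77 ± 0.18 (SE; limma, adjusted p 0.0760, or 0.0289 with the block). Of its exon bases, 8.10% and 5.02% overlap 2 other genes on the opposite strand. For Slc20a2, the related carrier PiT-2, the log2 fold change of 0.39 was below the threshold (95% interval -0.03 to 0.81; limma, adjusted p 0.319). Slc34a1, the cotransporter of the kidney, was too low to test, with at most 9.28 normalized reads in any library.

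Of the calcium exchangers, Slc8a2 (ENSMUSG00000030376), the sodium/calcium exchanger NCX2 best known from brain, had 279, 332 and 330 normalized reads in Control and 132, 195 and 232 in Sox9cKO. All Sox9cKO libraries were below all Control libraries, and replicate 1 was the lowest of each group. The log2 fold change was -0.78 ± 0.23 (SE), with a limma adjusted p of 0.131, or 0.0339 with the block. Slc8a1, the exchanger NCX1 known from heart, had 501, 494 and 525 in Control and 850, 474 and 1114 in Sox9cKO. Its Control libraries were close together while Sox9cKO replicate 2 fell below them all, and the difference was not called (limma, adjusted p 0.346, or 0.139 with the block). Of the potassium-dependent Slc24 exchangers, 3 of 5 rows were tested and none was called by limma without or with the block, by edgeR or by DESeq2. Slc24a3, the highest of them by reads, had an unadjusted p under 0.05, with 2.52, 12.1 and 25.3 in Control and 46.8, 69.0 and 22.6 in Sox9cKO (adjusted p 0.232).

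Among the zinc and manganese carriers, Slc39a4 (ENSMUSG00000063354) encodes the zinc importer ZIP4, known for dietary zinc uptake in the gut. It had 825, 805 and 990 normalized reads in Control and 2014, 2087 and 1878 in Sox9cKO. Both groups were tight and lay far apart. It rose from 873 ± 101 to 1993 ± 106 (SD, n = 3), a log2 fold change of 1.19 ± 0.12 (SE; limma, adjusted p 0.00488), and kept its call under all 18 alternatives (adjusted p up to 0.0324). Per length of exon it was the third highest member, at 461 normalized reads per kb over all libraries, after Slc9a3r1 and the zinc importer Slc39a1 (563).

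The other zinc and manganese carriers were not called. Slc39a14, an importer of zinc, iron and manganese in liver, had 843 ± 91.0 in Control and 973 ± 59.6 in Sox9cKO (log2 fold change 0.21, 95% interval -0.08 to 0.50). Slc30a1, the zinc exporter of the plasma membrane, had 1462 ± 231 and 1383 ± 88.7 (log2 fold change -0.07, 95% interval -0.40 to 0.26). The exporter Slc30a10 and the importer Slc39a5, both known from liver, were too low to test, at 3.78 to 12.6 and 2.52 to 13.2 normalized reads. Of the 12 tested Slc39 rows, Slc39a4 alone was called, with or without the block. Of the 7 tested Slc30 rows, none was called by limma without or with the block, by edgeR or by DESeq2, and none had an unadjusted p under 0.05; their log2 fold changes ran from -0.07 to 0.90.

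**Figure D4:**
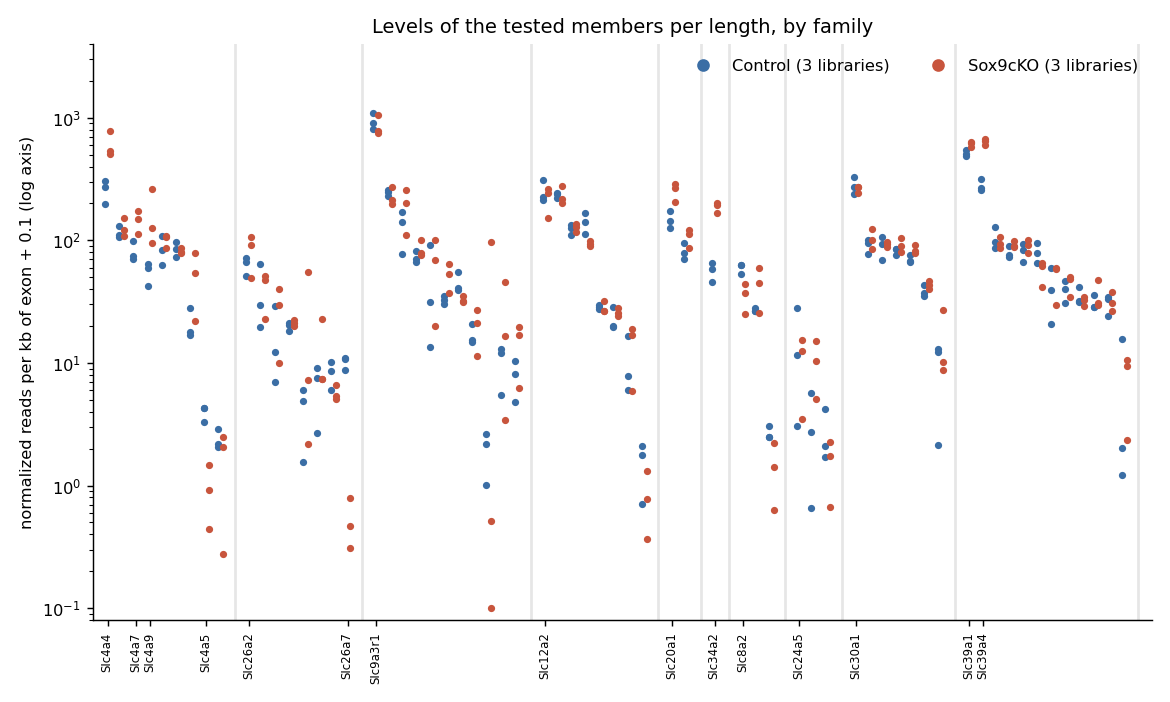
Normalized reads per kb of exon plus 0.1 (log axis) for the 64 tested members, by family and in falling order of their mean, with names for the highest of each family and for the 9 called members, and with 3 Control libraries in blue and 3 Sox9cKO libraries in red. Slc9a3r1, Slc39a1, Slc39a4 and Slc4a4 are the highest members, and the red points of Slc39a4, Slc4a4 and Slc34a2 lie above the blue ones.

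The 14 members below the level for testing were Slc4a1, Slc4a10, Slc12a1, Slc24a2, Slc24a4, Slc26a4, Slc26a5, Slc26a8, Slc30a2, Slc30a10, Slc34a1, Slc39a1-ps, Slc39a2 and Slc39a5. They include the thyroid iodide carrier pendrin (Slc26a4) and the kidney cotransporter NKCC2 (Slc12a1). When limma was run with no filter on low values, none of the 14 was called.

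Genes that work with these carriers were read from fixed lists. Of the 21 genes of bicarbonate and fluid secretion, 19 were tested and 1 was called (5.26%), beside 2.97% of all tested genes. With the block, 3 were called (15.8%), beside 8.05% of all tested genes. Car13, a cytosolic carbonic anhydrase, had 269, 243 and 301 normalized reads in Control and 122, 135 and 81.5 in Sox9cKO. It fell by 1.28 on the log2 scale (limma, adjusted p 0.0308), and it lost its call in 6 of 18 alternatives (adjusted p up to 0.134). With the block, Itpr3, the calcium release channel of bile duct cells, was called higher (log2 fold change 0.69, adjusted p 0.00937). The channels Cftr (log2 fold change -0.07) and Ano1 (0.18) and the carbonic anhydrase Car2 (0.43) were not called without or with the block.

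Of the 16 carrier regulators, which include the scaffolds Slc9a3r1 and Slc9a3r2, 15 were tested and 2 were called. That is 13.3%, beside 2.97% of all tested genes, and rests on 2 genes. With the block, 3 were called (20%), beside 8.05% of all tested genes. Wnk2, of the kinase family that controls Slc12 cotransporters, fell by 2.23 on the log2 scale, with 1488 ± 202 in Control and 316 ± 23.7 in Sox9cKO (SD, n = 3; limma, adjusted p 0.00114). Tesc, a calcium-binding protein, fell by 3.40, with 137 ± 15.3 and 12.6 ± 4.83 (adjusted p 0.00368). Slc12a2, a carrier on which such kinases act, was not called, as given above. The other Wnk kinases and the kinases Stk39 and Oxsr1 were not called without or with the block, and the scaffold Pdzk1 was higher with the block only (1.5; adjusted p 0.0652, or 0.0367 with the block).

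None of the 4 tested genes of zinc handling was called by limma without or with the block, by edgeR or by DESeq2, and none had an unadjusted p under 0.05. Mt1 and Mt2, the metallothioneins that rise with cell zinc, had log2 fold changes of 0.12 and 0.19. Of the 4 phosphate genes, none was called without the block and by edgeR, 1 had an unadjusted p under 0.05, and 1 was called with the block and by DESeq2. That gene was Ank, which exports pyrophosphate and ATP, with 186 ± 34.6 in Control and 81.7 ± 25.1 in Sox9cKO (limma, adjusted p 0.0715 without and 0.0116 with the block; log2 fold change -1.21). Of the 6 tested calcium pumps, none was called without the block, by edgeR or by DESeq2, none had an unadjusted p under 0.05, and Atp2b4 was called with the block (1.42, adjusted p 0.0329) though its groups overlapped.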

How the data were processed

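The values that the authors deposited are of the unit signal: each is a gene's read count in a sample over that sample's size factor. The submitters' processing notes name DESeq2 1.36.0 and the build GRCm39. Per the labels, total RNA was depleted of ribosomal RNA and made into stranded libraries with molecular identifiers. The aligner, the counter, the annotation, and the use of strand and identifiers are not given in the sources used here. All deposited values (100%) were whole multiples of each library's smallest value (tolerance 0.001 reads), which gave whole reads.

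Values were tested as log2(value + 1) in limma 3.58.1 under R 4.3.3 (two-sided, intensity trend, Benjamini-Hochberg over the 17153 genes with a mean of at least 10, threshold 0.05). Fold changes of low genes are understated by the pseudocount of 1. At the level of 10, a library held between 8.68 and 11.9 reads. Same-numbered samples of the titles deviated together (correlations 0.207, 0.472 and 0.542), so results of a blocked fit (replicate block) are given where they change a call. edgeR 4.0.16 and DESeq2 1.42.0 were run on the whole reads. Further fits used a pseudocount of 0.1 or 5, every gene or those with a mean of at least 50, quantile normalization or TMM factors, sample weights, a prior without the trend, or 5 of the 6 samples. The fits were also run on simulated reads in which some genes were changed. Those reads held no effect of the replicate number, so they cannot show how the blocked fits behave on these data.

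The members and gene lists were chosen with earlier results of these data known. Named members are those called with or without the block, the highest of each family by reads, and a fixed list of carriers known from bile duct, liver or other cells. Of the partner lists, Nherf1, Nherf2 and Ankh were read under the table's symbols Slc9a3r1, Slc9a3r2 and Ank, and Mt3 and Mt4 were not analysed here. Some members and partner genes are not reported here. Exon lengths and overlaps came from GENCODE M21 and promoter sequences from RefSeq, both on GRCm38, matched by gene identifier and by symbol.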

Additional observations from a re-analysis of the deposited data

How the results depend on the processing

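Slc34a2 and Slc39a4 kept their direction and their call in all 18 alternatives, and Slc26a7 in the 17 in which it was tested. Slc4a4 kept its direction in all 18 and its call in 12. The number of called members was 4, against 7 with sample weights (5 higher, 2 lower), 9 with the replicate block (6 higher, 3 lower), 9 in edgeR with the replicate block (6 higher, 3 lower) and 10 in DESeq2 (6 higher, 4 lower). At a minimum mean of 50 it was 3, with 0 lower, since Slc26a7 was then not tested. Without 1 sample it was 3 to 4 (2 to 3 higher, 1 lower). Over all genes 510 were called, against 1043, 1381, 1160 and 1214 in the first 4 of these alternatives, and 199 to 387 without 1 sample. The cause was not tested. The median log2 fold change of the members was 0.183, against 0.0796 with quantile normalization, which moved the median of all genes from 0.036 to -0.031, and 0.118 to 0.187 without 1 sample. Among the genes of the naming rule, the log2 fold changes that turned sign belonged to genes that were not called. They were Slc26a2 (-0.0566) with sample weights, Slc12a7 with quantile normalization (-0.0572), sample weights (-0.0565), edgeR (-0.00442) and edgeR with the replicate block (-0.00302), and Slc9a3 with a pseudocount of 0.1 (-0.909) and sample weights (-1.37). Without 1 sample, signs turned for 19 of the 64 tested members, of which 0 were called. Those of the naming rule were Slc9a3 (range -2.53 to 2.01; without Control replicate 1, -0.182, or Sox9cKO replicate 1), Slc12a7 (-0.0413 to 0.105; Control replicate 2 or Sox9cKO replicate 1, -0.0151), Slc12a2 (-0.359 to 0.0268; Sox9cKO replicate 2), Slc4a2 (-0.0189 to 0.233; Sox9cKO replicate 1), Slc30a1 (-0.174 to 0.0498) and Slc39a8 (-0.0539 to 0.709), both without Control replicate 3. Slc9a9 (-0.05 to 1.33) and Slc9a4 (-0.32 to 1.53) turned as well. A list of intestinal genes was added after seeing the data. Depth limits the members with few reads, such as Slc26a7 in Sox9cKO.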
